A study of Mus musculus with 6 samples.

Results

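MicroRNAs of the imprinted Dlk1-Dio3 region were followed across small RNA libraries from 3 mouse tumors and 3 mouse oviducts. The 10 strands described here come from 9 hairpins and are part of 1915 mouse microRNA names in the deposited counts. They were selected on being counted in these libraries, from 111 strands of the region that were listed by name. Of the 111, 72 had a count in at least 1 library and these 10 passed the low-count filter of the whole-table test. The last one inside that limit, mmu-miR-410-3p, had 121 counts over the 6 libraries, and the first one outside, miR-434-5p, had 55. The 10 strands held 95.7% of all counts of the listed strands. Below, the region means this list, which leaves out miR-1247, a microRNA between Dlk1 and Dio3. The tumors, labelled ADT tumor with oviduct as tissue, carried the genotype Dicer1ko/D1693N, which is the D1693N allele beside a knocked-out one. The oviducts carried Dicer1+/D1693N, so D1693N was present in both groups and the second allele differed. The submitters' design note counts 4 tumors and 5 control oviducts, of which 3 and 3 are analysed here. The labels give no age or strain and no driver of the knockout, and they do not say whether each library stands for its own animal.

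A microRNA hairpin has a strand on each side, named 5p and 3p, and Dicer cuts both of them free. The D1693N change lies in the RNase IIIb domain of Dicer, which cuts the 5p side, and the 3p side is left to the RNase IIIa domain. The Dlk1-Dio3 region is imprinted: Dlk1, Rtl1 and Dio3 are expressed from the paternal chromosome, and the noncoding RNAs Meg3, Rian and Mirg and the microRNAs from the maternal one. The microRNAs are known for high levels in embryo, brain and placenta. Those opposite to Rtl1, a retrotransposon-derived gene needed in placenta, can cut its messenger RNA because they are complementary to it.

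All 9 hairpins lie on the plus strand of chromosome 12 (GRCm38, GENCODE M21) within 150950 bases. Mir127 (109592846 to 109592915), Mir434 (109594506 to 109594599) and Mir136 (109595327 to 109595388) are opposite to an exon of Rtl1. Mir411 (109710175 to 109710256), Mir300 (109724313 to 109724391) and Mir381 (109726822 to 109726896) lie in no longer annotated gene. Mir541 (109742409 to 109742498) and Mir409 (109743158 to 109743236) are in introns of Mirg, and Mir410 (109743715 to 109743795) overlaps an exon of it. Dicer1 is on the same chromosome, from 104687742 to 104751952. The libraries hold no messenger RNA, so the genotypes rest on the labels alone.

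The mature strands are shown so that their seeds can be compared, with the seed (bases 2 to 8) in capitals. Sequences are RefSeq entries on GRCm38.p6, written 5′ to 3′. All 10 were found there.
mmu-miR-127-3p: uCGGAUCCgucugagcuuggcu
mmu-miR-434-3p: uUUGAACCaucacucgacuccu
mmu-miR-136-3p: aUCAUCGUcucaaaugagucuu
mmu-miR-300-3p: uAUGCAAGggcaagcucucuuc
mmu-miR-381-3p: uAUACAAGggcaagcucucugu
mmu-miR-409-3p: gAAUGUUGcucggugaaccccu
mmu-miR-410-3p: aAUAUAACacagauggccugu
mmu-miR-136-5p: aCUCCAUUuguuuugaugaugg
mmu-miR-411-5p: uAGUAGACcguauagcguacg
mmu-miR-541-5p: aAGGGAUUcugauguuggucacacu

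No seed was shared between members. The nearest pair, miR-300-3p and miR-381-3p, differed at 3 of 22 positions, 1 of them in the seed, with a shared run of 16 bases, so how reads were divided between these names may depend on the mapping, for which no aligner is named. The seed of miR-410-3p also occurs in 2 other mouse names of the table and that of miR-411-5p in 1, and none of these 3 names passed the low-count filter. No other mouse name had counts identical to those of a member.

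The hairpins of 4 members are shown because their strands changed in relation to each other, with the 5p strand and then the 3p strand in capitals.
Mir136: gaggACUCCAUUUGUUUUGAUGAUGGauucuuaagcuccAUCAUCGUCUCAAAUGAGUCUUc
Mir411: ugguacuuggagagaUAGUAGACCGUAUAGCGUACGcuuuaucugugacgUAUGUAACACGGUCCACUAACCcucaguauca
Mir434: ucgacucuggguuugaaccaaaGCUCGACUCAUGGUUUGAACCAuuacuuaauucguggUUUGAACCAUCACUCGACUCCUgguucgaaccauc
Mir541: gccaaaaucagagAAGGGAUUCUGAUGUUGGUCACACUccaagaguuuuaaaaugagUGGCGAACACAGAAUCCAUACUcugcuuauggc

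Depth was 154002 to 272167 mouse counts for the tumors and 297039 to 580390 for the oviducts. Levels are depth-scaled counts (CPM) after TMM (trimmed mean of M-values) normalization, and 3 counts corresponded to 12.9 to 15.1 CPM in the tumors and 5.48 to 11.9 CPM in the oviducts. MicroRNAs typical of the oviduct epithelium were counted in both groups, with lower sums in the tumors. Strands of the miR-34 and miR-449 hairpins of multiciliated cells (7 of 9 counted) summed to between 422 and 1214 CPM in the tumors and between 14867 and 21618 CPM in the oviducts. Those of the miR-200 family (9 of 10 counted) summed to between 3908 and 7088 CPM in the tumors and between 7099 and 12086 CPM in the oviducts. Erythroid strands (3 of 3 counted) summed to 1193, 163 and 339 CPM in tumors 1, 2 and 3, against 152 to 187 CPM in the oviducts. Those of miR-126a of endothelium (2 of 2 counted) summed to 15198 to 20196 CPM in the tumors and 7146 to 9548 CPM in the oviducts. Genotype, tumor state and an unexplained mark in the column headers (s1 for tumors, s0 for oviducts) cannot be told apart. Tumor 3 stood apart from the other tumors in the 3p strands of the region, and results are given with and without it.

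The region's 3p strands were high in tumors 1 and 2 and low in tumor 3, whereas the 5p strands of miR-411 and miR-541 were low in every tumor and that of miR-136 was high in every tumor. With edgeR's quasi-likelihood test over 227 microRNAs, 3 of the 10 strands rose (miR-136-5p, miR-300-3p and miR-409-3p), 2 fell (miR-411-5p and miR-541-5p) and 5 were not called. Over all 227, 26.9% were called higher and 25.6% lower in the tumors. Without tumor 3, 7 of the 10 were called higher: every 3p member but miR-434-3p, and miR-136-5p. In that fit 26.1% of 241 microRNAs, and 40.7% of 113 3p strands, were called higher. Leaving out any other library instead left only miR-136-5p called higher among the 10. The log2 fold change, tumor over oviduct, had a median of 1.80 over the 7 3p members and 0.89 over all 3p strands tested. Over all 5p strands tested the median was -1.04. The 3 5p members lay in opposite directions, at 4.19 (miR-136-5p), -5.49 (miR-411-5p) and -4.23 (miR-541-5p). Without tumor 3 the 3p medians were 2.27 for the members and 0.62 for all. The member values describe strands that were picked for their counts, and miR-411-5p and miR-541-5p passed the filter through the oviducts alone. In turn, miR-136-5p, miR-300-3p and miR-409-3p, the strands called higher, had too few oviduct counts to pass on the oviducts alone. The same was true of miR-136-3p and miR-410-3p. Sizes of rises and falls carry this selection. Since these are pieces of tissue, fewer cells that make a microRNA and less of it per cell cannot be told apart.

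**Figure D1:**
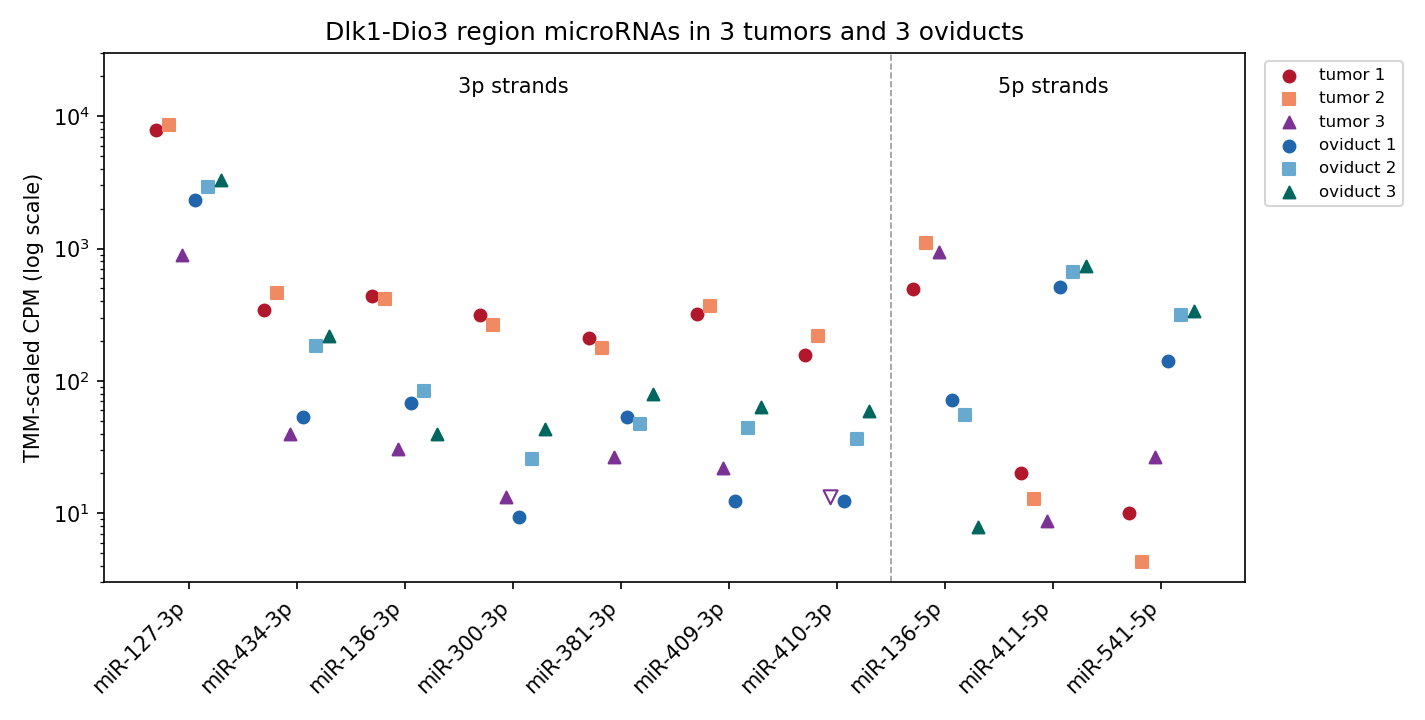
TMM-scaled CPM on a log axis for each of the 10 strands, 1 point per library, tumors left of oviducts. For all 7 3p strands tumors 1 and 2 stand above every oviduct and tumor 3 below the other tumors, while miR-136-5p is above and miR-411-5p and miR-541-5p are below the oviducts in all 3 tumors. The hollow triangle marks 0 counts of miR-410-3p in tumor 3, drawn at the level of 3 counts.

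Opposite to Rtl1, mmu-miR-127-3p was the most counted strand of the region in every library except tumor 3, where miR-136-5p had more counts. It had 7820, 8617 and 892 CPM in tumors 1, 2 and 3, against 2307, 2891 and 3277 CPM in oviducts 1, 2 and 3. The groups overlapped, since tumors 1 and 2 were above all oviducts and tumor 3 was below them. It was not called (log2 1.03, SE 0.66, edgeR adjusted p = 0.214), but was without tumor 3 (log2 1.43, adjusted p = 0.00429) and with library totals alone (log2 1.30, adjusted p = 0.0415).

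Its neighbour mmu-miR-434-3p had 342, 464 and 39.6 CPM in the tumors, against 53.0, 183 and 217 CPM in the oviducts. The order was the same, with 2 tumors above and 1 below all oviducts, and it was not called (log2 0.90, SE 0.80, edgeR adjusted p = 0.361). The 3p strand of miR-136 had 438, 412 and 30.8 CPM in the tumors, against 68.6, 84.0 and 39.5 CPM in the oviducts. Tumor 3 again lay below all oviducts, and mmu-miR-136-3p just missed the threshold (log2 2.17, SE 0.83, edgeR adjusted p = 0.0522). DESeq2 called it (adjusted p = 0.0158), and so did edgeR with library totals alone (adjusted p = 0.00389), with no low-count filter (adjusted p = 0.00767) and without tumor 3 (log2 2.60, adjusted p = 0.00172).

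The 5p strand of the same hairpin did not follow that order. It had 499, 1099 and 945 CPM in the tumors, against 71.7, 54.8 and 7.91 CPM in the oviducts, from 99, 256 and 215 counts in the tumors and 23, 30 and 2 counts in the oviducts. All tumors were above all oviducts, and tumor 3, lowest in the 3p strands, was at 118% of the mean of the other tumors. The rise of mmu-miR-136-5p was 18.2-fold (log2 4.19, SE 0.64, edgeR adjusted p = 0.000708). Only 2.11% of 95 tested 5p strands were called higher in the tumors and 48.4% were called lower. Over all 227 microRNAs, 30.0% had tumors above the oviducts with no overlap, and 30.4% had them below. The call held under each of the 14 alternatives tried, with log2 values between 3.43 and 4.34 when 1 library at a time was left out.

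Further along the chromosome, the hairpins from Mir411 to Mir410 form the second cluster of the region. Its 3p strands were counted less often than miR-127-3p. In tumors 1, 2 and 3, mmu-miR-300-3p had 312, 266 and 13.2 CPM, against 9.35, 25.6 and 43.5 CPM in the oviducts. Tumors 1 and 2 were above every oviduct and tumor 3 was among the oviducts. Its rise was 7.57-fold (log2 2.92, SE 1.00, edgeR adjusted p = 0.0343). The call was lost with TMM on 3p names (edgeR adjusted p = 0.104), with a replicate block (edgeR adjusted p = 0.161) and without any library but tumor 3. With 1 library left out, its log2 value lay between 2.08 without tumor 1 and 3.38 without tumor 3.

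mmu-miR-409-3p showed the same order, with 322, 365 and 22.0 CPM in the tumors, against 12.5, 43.8 and 63.2 CPM in the oviducts. It rose by 5.93-fold (log2 2.57, SE 0.94, edgeR adjusted p = 0.0450). The call was lost, among other settings, with upper-quartile factors (adjusted p = 0.0501), with TMM on 3p names (adjusted p = 0.141), at a mean of at least 10 CPM (adjusted p = 0.0625) and without any library but tumor 3. Its log2 value lay between 1.74 without oviduct 1 and 3.00 without tumor 3. Among 110 tested 3p strands 41.8% were called higher, and 2 of the 7 in the region were.

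Next to it, mmu-miR-410-3p had 156, 219 and 0 CPM in the tumors, against 12.5, 36.5 and 59.3 CPM in the oviducts. The 0 counts in tumor 3 allow a level of up to 13.2 CPM, which covers counting error only. It was not called (log2 1.80, SE 1.09, edgeR adjusted p = 0.193), but was without tumor 3 (log2 2.27, adjusted p = 0.0137) and with library totals alone (adjusted p = 0.0129). The last 3p strand, mmu-miR-381-3p, had 211, 176 and 26.4 CPM in the tumors, against 53.0, 47.5 and 79.1 CPM in the oviducts. It was not called (log2 1.21, SE 0.71, edgeR adjusted p = 0.170), and without tumor 3 it was (log2 1.61, adjusted p = 0.0306).

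Both 5p members of this cluster fell. In the tumors, mmu-miR-411-5p had 20.1, 12.9 and 8.79 CPM, from 4, 3 and 2 counts, against 511, 661 and 743 CPM in the oviducts, from 164, 362 and 188 counts. It fell in every tumor to a level near that of 3 counts, a 45.1-fold difference (log2 -5.49, SE 0.48, edgeR adjusted p = 2.47e-05). mmu-miR-541-5p, which has 25 bases, had 10.1, 4.29 and 26.4 CPM in the tumors, from 2, 1 and 6 counts, against 140, 316 and 336 CPM in the oviducts, from 45, 173 and 85 counts. All tumors were below all oviducts, and the fall was 18.8-fold (log2 -4.23, SE 0.72, edgeR adjusted p = 0.000933). Without tumor 3 the log2 value of miR-541-5p was -5.25, and without tumor 2 it was -3.74. For miR-411-5p it lay between -6.09 without tumor 1 and -5.36 without tumor 3. Both calls held under each of the 14 alternatives tried.

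**Figure D2:**
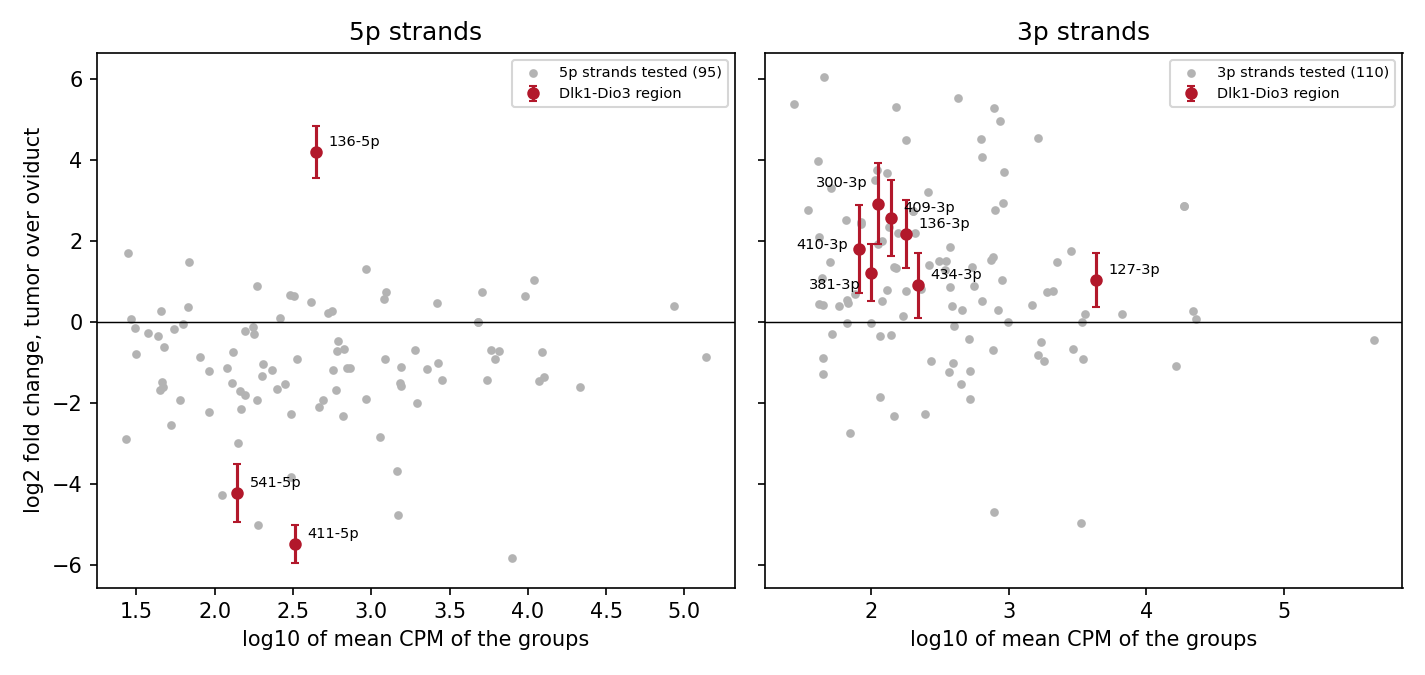
Log2 fold change (tumor over oviduct, TMM scaling) against the log10 mean CPM of the groups for all tested 5p strands (left, 95) and 3p strands (right, 110), with the region's strands in red and bars of 1 SE. The red 3p strands lie above 0 within the spread of the other 3p strands, and miR-136-5p lies above, and miR-411-5p and miR-541-5p below, most 5p strands.

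Log2 fold changes moved with the scaling. Over all tested strands their median was -0.73 when TMM used 3p names only, 0.65 when library totals alone set the scale, 0.32 by upper quartile and 0.19 by relative log expression. No member changed sign between these. For miR-127-3p the log2 value was 0.25 when TMM used 3p names only and 1.30 with library totals alone.

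The next question was how the strands varied together within a group. All 7 3p members were lowest in tumor 3 among the tumors. In tumor 3 the 6 of them with a count stood at between 4.56% and 13.6% of their mean in tumors 1 and 2. Compared with the oviducts, 5 of the 7 were below the lowest oviduct there and 2 were within their range. Of the 5, only miR-127-3p was well counted in tumor 3, with 203 counts. There miR-136-3p, miR-381-3p and miR-434-3p had 7, 6 and 9 counts. The 0 counts of miR-410-3p allow up to 13.2 CPM, above the 12.5 CPM of oviduct 1. In tumors 1 and 2 all 7 were above the highest oviduct. The shares of all 3p strands in these positions, or lowest in tumor 3 among the tumors, were not computed. The pattern is thus not shown to be particular to the region. The log2 ratio of tumors 1 and 2 to the oviducts lay between 1.42 for miR-434-3p and 3.47 for miR-300-3p.

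The strands of the region outside the members gave similar counts. Its 34 other 3p strands with a count summed to 57, 100 and 3 counts in tumors 1, 2 and 3, against 7, 49 and 25 counts in the oviducts. As levels these are 287, 429 and 13.2 CPM in the tumors and 21.8, 89.4 and 98.8 CPM in the oviducts. Tumor 3 was thus the lowest of the tumors in these rarely counted 3p strands too. Its 3 counts, against 7 in oviduct 1, are too few to order those libraries.

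**Figure D3:**
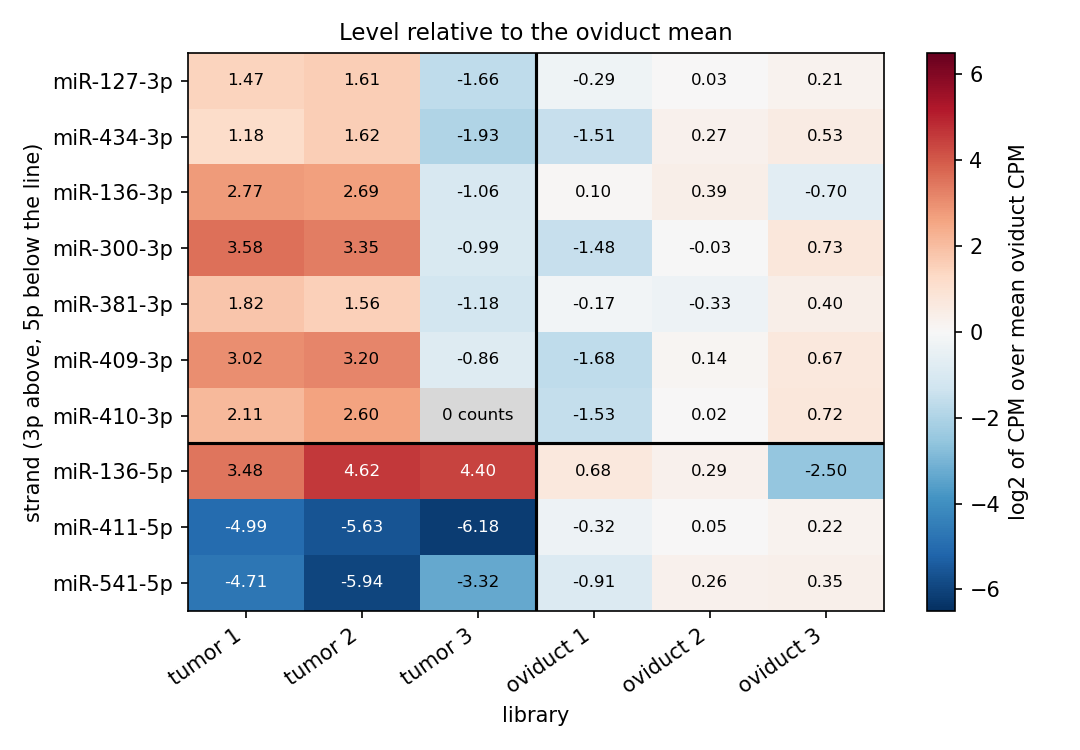
Heat map of log2 CPM over the mean oviduct CPM for each strand (rows, 3p above and 5p below the line) in each library (columns, tumors left of oviducts). The 3p rows are positive in tumors 1 and 2 and negative in tumor 3, except that miR-410-3p has 0 counts and no value there. miR-136-5p is at 3.48, 4.62 and 4.40 in the tumors, and miR-411-5p and miR-541-5p are at -3.32 or lower in them.

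Marker microRNAs of other cell types also differed between the tumors. Strands of miR-143 and miR-145a, abundant in smooth muscle (4 of 4 counted), summed to 835521, 210587 and 94643 CPM in tumors 1, 2 and 3, against 489781 to 557882 CPM in the oviducts. Nearly all of this was miR-143-3p, which was not called, while both miR-145a strands fell. In tumor 1, the highest in the sum, miR-145a-5p had 50.4 CPM, with 167 and 96.7 CPM in tumors 2 and 3, against 2613 to 3269 CPM in the oviducts. Those of striated muscle (5 of 9 counted) summed to 715, 232 and 44.0 CPM in the tumors, against 589 to 964 CPM in the oviducts. The list for mesenchymal stroma (miR-199a, miR-199b and miR-214, 6 of 6 counted) was mixed: its 3p names rose, miR-199a-5p and miR-214-5p fell and miR-199b-5p was not tested. Because miR-199a-3p and miR-199b-3p have identical counts, no sum is given. miR-199a-3p had 27505, 28933 and 42415 CPM in tumors 1, 2 and 3, against 3866 to 4895 CPM in the oviducts, and miR-214-3p had 1052, 1404 and 1697 CPM in the tumors, against 203 to 206 CPM in the oviducts. Both were highest in tumor 3.

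Leukocyte strands (7 of 8 counted) summed to 816, 5015 and 752 CPM in the tumors, against 1099 to 1774 CPM in the oviducts. Neuronal strands (4 of 7 counted) stayed between 60.4 and 137 CPM in the tumors and between 40.5 and 103 CPM in the oviducts. Tumor 3 had the fewest counts and the largest TMM factor, 1.49, against 0.734 and 1.33 in the other tumors. The part of these differences in the levels of the region was not tested.

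Summed over the 10 strands, the region reached 10132, 11635 and 2005 CPM in the tumors, against 3240, 4343 and 4866 CPM in the oviducts. As a share of all mouse counts this was 0.739%, 1.53% and 0.296% in the tumors and 0.277%, 0.410% and 0.414% in the oviducts. The sums averaged 7924 ± 5181 CPM in the tumors and 4149 ± 830 CPM in the oviducts (SD, n = 3 each), so the group means lie within the spread of the tumors. The mean log2 difference of 0.60 was 1.30 without tumor 3, 0.95 with library totals alone, -0.03 without tumor 1 and -0.29 with TMM on 3p names. No test was made of this sum, because its members were picked for their counts.

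Ratios between strands of the same library need no scaling. In the oviducts miR-411-5p was at 22.2%, 22.9% and 22.7% of miR-127-3p. This was the steadiest of the members' shares there, and its counting error was not computed. In the tumors miR-411-5p was at 0.258%, 0.149% and 0.985%. For miR-541-5p the shares were 0.129%, 0.0498% and 2.96% in the tumors, against 6.08%, 10.9% and 10.3% in the oviducts.

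Among 3p strands, for miR-381-3p the share of miR-127-3p was 2.70%, 2.04% and 2.96% in the tumors and 2.30%, 1.64% and 2.41% in the oviducts, and the groups overlapped. For miR-434-3p it was 4.38%, 5.38% and 4.43% in the tumors and 2.30%, 6.31% and 6.63% in the oviducts, with overlap too. In 3 of the 6 other 3p members the tumors were above the oviducts with no overlap, as they were in 27.5% of all 109 3p strands tested beside miR-127-3p. One was miR-136-3p, not called by its level, with 5.60%, 4.78% and 3.45% in the tumors and 2.97%, 2.90% and 1.21% in the oviducts. For miR-300-3p it was 3.99%, 3.09% and 1.48% in the tumors and 0.405%, 0.884% and 1.33% in the oviducts, and for miR-409-3p it was 4.12%, 4.24% and 2.46% in the tumors and 0.541%, 1.52% and 1.93% in the oviducts. The values of tumor 3 rest on 3 counts of miR-300-3p and 5 of miR-409-3p.

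The strands of single hairpins were then compared through their 5p to 3p ratio, on a log2 scale, tested with limma over 142 hairpins. Of the 9 hairpins of the region, the ratio fell in 3 (miR-411, miR-434 and miR-541), rose in 1 (miR-136) and was not called in 5. Over all 142 hairpins it fell in 47.2% and rose in 4.23%. The median change was -0.73 in the 9 and -1.53 in all.

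In miR-411 the 5p strand had 4 of 7, 3 of 9 and 2 of 2 counts in tumors 1, 2 and 3, against 164 of 166, 362 of 369 and 188 of 188 counts in the oviducts. Pooled, this was 9 of 18 counts in the tumors (exact Clopper-Pearson 95% interval of the share 26.0% to 74.0%) and 98.8% of 723 counts in the oviducts (97.7 to 99.4). The change was -6.13 (log2, SE 0.98, limma adjusted p = 0.000463). Its 3p strand kept few counts in both groups, 3, 6 and 0 in the tumors and 2, 7 and 0 in the oviducts, so the change lay in the 5p counts.

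In miR-541 the 3p strand had 1 count in all, in tumor 1. Its ratio (change -5.45, SE 0.84, limma adjusted p = 0.000379) thus repeats the fall of the 5p strand and follows the pseudocount. In miR-434 the lesser strand was the 5p one, and it fell further. It had 0, 3 and 0 counts beside 68, 108 and 9 of the 3p strand in the tumors, and 11, 34 and 7 beside 17, 100 and 55 in the oviducts. Pooled, the 5p share was 1.60% of 188 counts in the tumors (exact interval 0.330 to 4.59) and 23.2% of 224 counts in the oviducts (17.9 to 29.3). The change was -3.75 (log2, SE 0.86, limma adjusted p = 0.00462).

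In miR-136 the balance moved the other way. The 5p strand took 53.2%, 72.7% and 96.8% of the counts in tumors 1, 2 and 3, against 51.1%, 39.5% and 16.7% in the oviducts. The shares averaged 74.3% ± 21.9 in the tumors and 35.8% ± 17.5 in the oviducts (SD, n = 3 each). Tumor 1 and oviduct 1 hardly differed, with exact intervals of 45.8 to 60.6 and 35.8 to 66.3, and the shift was carried by tumors 2 and 3 and by oviducts 2 and 3.

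The share of tumor 3 comes from 215 5p and 7 3p counts (exact interval 93.6 to 98.7), and that of oviduct 3 from 2 and 10 counts (2.09 to 48.4). The log2 change of miR-136 was 3.02 (SE 1.09, limma adjusted p = 0.0399). It was 1.67 without tumor 3 and 4.00 without tumor 1, and the call was lost without tumor 2 or 3, without oviduct 2 or 3 and with a pseudocount of 0.1 (limma adjusted p = 0.0535, 0.121, 0.0881, 0.110 and 0.0967, in that order). The call was also lost with a replicate block (limma adjusted p = 0.0813). An edgeR interaction of arm and group called the change of miR-136 (adjusted p = 0.0107). Opposite to this hairpin the annotation has another, Mir3071, whose strands had 0 counts in all 6 libraries.

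**Figure D4:**
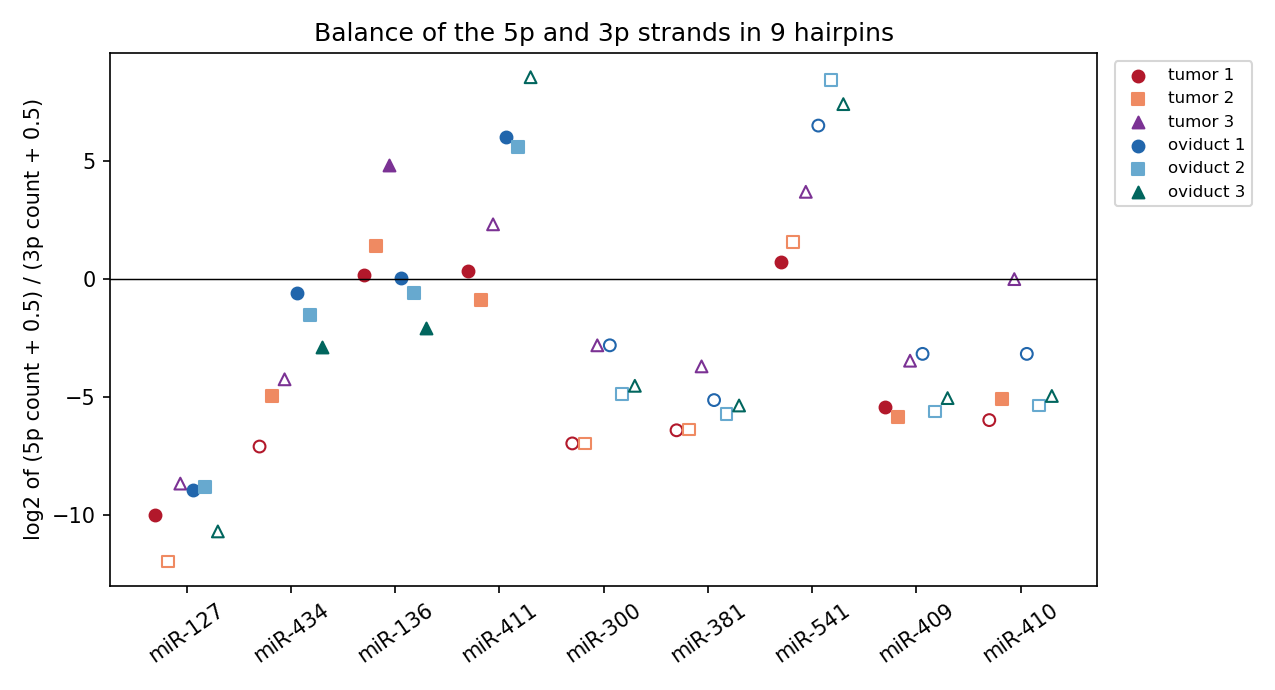
Ratio of 5p to 3p counts (0.5 added to each, log2) for the 9 hairpins in chromosome order, 1 point per library, tumors left of oviducts, with hollow points where a strand had 0 counts. The tumors are below the oviducts in miR-434, miR-411 and miR-541, and in miR-136 the ratio is highest in tumor 3, at 4.84.

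In the 5 other hairpins the 5p strand was almost never counted in either group. In miR-127 it had 1 of 3764 counts in the tumors, a share of 0.0266% (exact interval 0.000673 to 0.148), and 4 of 3157 counts in the oviducts, a share of 0.127% (0.0345 to 0.324). In miR-300 it had 0 counts in both groups, which allows a share of up to 2.36% in the tumors and 10.7% in the oviducts. In miR-381 it had 0 of 89 counts in the tumors and 0 of 63 in the oviducts, which allow up to 3.37% and 4.76%.

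A fall of the 5p strand in these hairpins was thus not detectable at this depth. The same holds for miR-409, with 2 5p counts beside 154 3p counts in the tumors and 0 beside 44 in the oviducts, and for miR-410, with 1 beside 82 in the tumors and 0 beside 39 in the oviducts. Only miR-300 crossed the threshold in an alternative, without tumor 3 (change -2.90, limma adjusted p = 0.0140), and since its 5p strand was at 0 throughout, that change follows its 3p counts.

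The remaining strands of the list were counted too seldom to pass the filter. With no filter, 6 of 72 strands of the region were called higher and 4 lower, against 10.7% higher and 8.27% lower of all 919 tested. Of 62 with a count that did not pass the filter, 2 belong to miR-299b, which is annotated opposite to miR-299a and has the same 3p counts, and were left out of sums. Of the other 26 5p strands, 9 had a higher and 17 a lower mean CPM in the tumors. Of the 34 3p strands, 29 had a higher and 5 a lower mean CPM in the tumors. A single count gives more CPM in the less deep tumor libraries, so rarely counted strands lean to the tumors. Among the 29 are miR-411-3p, with 9 counts in each group, and miR-341-3p, with 10 in the tumors and 13 in the oviducts. The share over all rarely counted 3p strands was not computed. Summed, these 5p strands had 9, 13 and 4 counts in the tumors, against 27, 95 and 31 counts in the oviducts, or 45.3, 55.8 and 17.6 CPM in the tumors and 84.2, 173 and 123 CPM in the oviducts.

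Within this 5p sum all tumors were below all oviducts. Of its 26 counts in the tumors and 153 in the oviducts, miR-434-5p gave 3 in the tumors and 52 in the oviducts. The 39 strands left of the 111 had 0 counts in all 6 libraries. Close to Dio3, and apart from both clusters, the annotation has miR-1247, which the list of the region leaves out. Its 5p strand had 10.1, 17.2 and 17.6 CPM in the tumors, from 2, 4 and 4 counts, near the level of 3 counts. In the oviducts it had 115, 100.4 and 55.3 CPM, from 37, 55 and 14 counts. The 5p strand fell (log2 -2.56, SE 0.54, edgeR adjusted p = 0.00292). The 5p to 3p ratio of miR-1247 fell as well (log2 change -3.91, SE 0.71, limma adjusted p = 0.00103). This microRNA was chosen after its values were seen.

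Profiles over the 6 libraries were finally compared with those of tested microRNAs outside the region, by the root mean square difference of centred log2 CPM, as a description. The average of the 3p members was nearest to miR-21a-3p (0.85), miR-223-3p (0.92) and miR-378a-3p (1.00). miR-21a-3p had 393, 537 and 101 CPM in the tumors, against 103, 67.5 and 51.4 CPM in the oviducts, and was thus also lowest in tumor 3 among the tumors but did not drop below the oviducts' range there. miR-411-5p was nearest to miR-92b-3p (0.26), miR-34b-5p (0.52) and miR-145a-5p (0.65), which fell in all tumors. miR-541-5p was nearest to miR-125b-5p (0.73), miR-100-5p (0.79) and miR-218-5p (0.93), and miR-136-5p to miR-181a-1-3p (0.72), miR-5121 (0.75) and miR-30d-3p (0.78).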

How the data were processed

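Small RNA was sequenced from 3 tumors and 3 oviducts of mice, from total RNA isolated with a miRNeasy kit and made into TruSeq small RNA libraries, per the labels' protocols. The deposited values are raw counts per mature microRNA name, with no normalization. Per the submitters' processing notes cutadapt was used, and the column names, per the file headers, are those of BAM files made after trimming. For the aligner, counter, microRNA reference and build: not given in the sources used here.

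Names of other species (67) were left out. The whole table was fitted with edgeR 4.0.16 in R 4.3.3 (filterByExpr with a minimum count of 10, TMM factors, robust quasi-likelihood test), which left 227 microRNAs. Strand ratios were log2 of (5p count + 0.5) to (3p count + 0.5) for 142 hairpins averaging 20 or more counts in all, tested with limma 3.58.1. Tests were two-sided, with Benjamini-Hochberg adjustment over the whole table and a threshold of 0.05. Since separate animals are not stated, p-values cover only sample-to-sample spread, possibly technical. Alternatives included DESeq2 1.42.0, other scalings, filters and pseudocounts, an arm by group interaction, a replicate block and leaving out each library. Exact 95% intervals and limits of 3 counts cover counting error only, since PCR reads are not independent molecules. The tests were also run on simulated counts.

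The members and lists were chosen with earlier results of these data known. A list of 56 hairpins of the region was written by name, of which 55 were found between Dlk1 and Dio3 in the annotation. All members, the other strands of their hairpins and the 3 tested microRNAs outside the region nearest to each profile (prior count 2) are named. miR-1247, Mir3071 and the strands named under alternatives were chosen after their values were seen.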

Additional observations from a re-analysis of the deposited data

How the results depend on the processing

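The number of members called higher was 3. It was 6 with library totals alone, 1 with TMM on 3p names and between 1 and 7 when 1 library at a time was left out: 7 without tumor 3, and 1, miR-136-5p, without any other library. For all strands of the region, 6 were higher and 4 lower with no low-count filter, where the members had 4 and 2. When strands had to average 10 CPM, the region had 3 and 3, where the members had 2 and 2. Under the other alternatives the region and the members had the same numbers, and 2 members were lower under every alternative. The tumors and oviducts share replicate numbers, and the labels do not say whether these pair the samples. Deviations from the group means correlated at -0.05, 0.09 and -0.14 for numbers 1, 2 and 3. With 3 libraries in each group, these values cannot decide whether the samples are paired. With the replicate block 1 strand was called higher, for the members and for the region (edgeR adjusted p = 0.161 for miR-300-3p and 0.176 for miR-409-3p), and 0 hairpins had a higher 5p:3p ratio (1 at an unadjusted p under 0.05, miR-136, limma adjusted p = 0.0813). With a pseudocount of 0.1 that number was also 0 (1 at an unadjusted p under 0.05), by edgeR's interaction it was 1, and it was 0 or 1 when 1 library was left out. Between 3 and 4 hairpins had a lower ratio under every alternative. The ratios of miR-300 and miR-410 gave no value without tumor 1 or tumor 2, where they had too few counts, and a minimum of 50 counts left 5 hairpins of the region. Over 140 refits of single strands, 16 lost a call and 9 gained one. Over 100 of single hairpins, 6 lost a call and 1 gained one. Low counts limit the values of the 3p members in tumor 3, with 0 to 9 counts each apart from miR-127-3p with 203. The depth of tumor 3, 154002 mouse counts, was near the 176615 of tumor 2. The causes of these changes were not tested.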

Other observations

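With no low-count filter 919 microRNAs were tested, 72 of them in the region, and 10.7% of all were called higher and 8.27% lower. In the region edgeR called 5 strands that were not called before. These were miR-136-3p (log2 1.90, adjusted p = 0.00767), miR-434-5p (log2 -3.44, adjusted p = 0.00116; 3 counts in the tumors and 52 in the oviducts), miR-431-5p (log2 -3.53, adjusted p = 0.0416; 1 count in the tumors and 21 in the oviducts), miR-369-3p (log2 3.75, adjusted p = 0.0329; 14 in the tumors and 1 in the oviducts) and miR-673-3p (log2 3.90, adjusted p = 0.0195; 16 in the tumors, 14 of them in tumor 2, and 1 in the oviducts). Fitted values of strands with so few counts depend on the prior count of the fit. Among strands averaging 10 CPM or more, miR-369-3p (log2 3.68, adjusted p = 0.0319) and miR-434-5p (log2 -3.43, adjusted p = 0.00975) were called.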
